A study of Mus musculus with 3 samples.

Results

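Predicted genes are mouse gene models that carry a placeholder symbol, Gm followed by a number, because no one had given them a functional name when the annotation was made. The predicted protein-coding genes described here were the transcripts with such a symbol and the class protein-coding in the authors' tables of RNA bound by Mettl3 and by Zfp217. They were 198 transcripts of 180 symbols, of 13595 transcripts listed in either table, and 164 of the symbols had a single transcript. The Mettl3 table held 159 of them (144 symbols) among 9501 transcripts. The Zfp217 table held 102 (100 symbols) among 8120 transcripts.

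The series measured RNA by immunoprecipitation and sequencing (RIP-seq) in untreated CCE cells, a mouse embryonic stem cell line grown without feeders in serum and LIF. There were 3 libraries, 1 from a Mettl3 RIP, 1 from a Zfp217 RIP and 1 input, the RNA that served as the background for both. Each RIP used 10 µg of antibody on nuclear lysate, so the RNA was nuclear. No library was replicated and a control antibody was not analysed here, so no test was made, and every ratio compares 2 libraries. Levels are FPKM, fragment numbers corrected for transcript length and for library size. Each table held only transcripts of at least 1 FPKM in the RIP and, where the input was above 0, at least 1.5-fold above it, so a transcript that is not listed may still have been present. The depth, estimated from the tables, was 9750000 scaled fragments for the Mettl3 RIP, 7050000 for the Zfp217 RIP and between 5750000 and 5875000 for the input. Of 10 pluripotency markers, 7 were listed in each table, against 1 of 6 fibroblast markers and 0 of 4 primitive endoderm markers.

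The methyltransferase complex that places N6-methyladenosine (m6A) on mRNA has Mettl3 as its catalytic core. Zfp217 is itself a C2H2 zinc finger factor, found in corepressor complexes on chromatin and linked to m6A in embryonic stem cells. Placeholder genes are a mixed class. Some were later recognised as ordinary genes, others turned out to be pseudogenes, and many belong to young families of tandem copies. A large family of this kind in mouse is that of the C2H2 zinc finger proteins, in which each finger folds around a zinc ion through a pair of cysteines and a pair of histidines and contacts DNA. Many of them carry a KRAB domain and silence transposable elements in embryonic stem cells, and the mouse has large gene clusters of this kind on chromosomes 2 and 4.

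The later annotation GENCODE M21, on GRCm38, held 75.5% of the members in the Mettl3 table and 71.6% of those in the Zfp217 table. Of the 159 transcripts in the Mettl3 table, 41 had since received another name as protein-coding genes and 52 were protein-coding under a Gm name. A further 15 had become pseudogenes, 12 noncoding or unconfirmed genes, and 39 transcripts were no longer in the annotation. Of the 102 transcripts in the Zfp217 table, the same classes held 19, 28, 15, 11 and 29. These classes are used below, since they separated the members by both level and input.

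The sequences of 2 groups of members carried most of what follows. The first group was the zinc finger genes of a chromosome 4 cluster. The sequences below, from GENCODE M21, are the last finger of 6 of them that is followed by the standard linker, in lower case, with the linker in capitals. They are shown because the finger with its linker is the unit that these genes repeat.
Gm13225 (Zfp990), bases 1973 to 2053 of its transcript, gene transcript at chr4:145510759-145539188, plus strand: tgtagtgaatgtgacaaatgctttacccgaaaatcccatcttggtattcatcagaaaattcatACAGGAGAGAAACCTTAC
Gm13051 (Zfp987), bases 1992 to 2072, chr4:146097345-146126621, plus strand: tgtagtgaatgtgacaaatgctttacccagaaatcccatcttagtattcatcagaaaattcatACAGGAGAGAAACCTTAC
Gm13251 (Zfp992), bases 1645 to 1725, chr4:146449023-146470292, plus strand: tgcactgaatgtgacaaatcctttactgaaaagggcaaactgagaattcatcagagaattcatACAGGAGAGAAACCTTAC
Gm13247 (Zfp981), bases 1406 to 1486, chr4:146502027-146539392, plus strand: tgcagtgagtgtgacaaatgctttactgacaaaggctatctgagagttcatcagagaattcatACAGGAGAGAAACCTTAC
Gm13212, bases 2558 to 2638, chr4:145585166-145625345, plus strand: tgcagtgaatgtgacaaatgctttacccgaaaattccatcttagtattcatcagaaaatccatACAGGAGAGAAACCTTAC
Gm13157 (Zfp984), bases 1868 to 1948, chr4:147753974-147809788, minus strand: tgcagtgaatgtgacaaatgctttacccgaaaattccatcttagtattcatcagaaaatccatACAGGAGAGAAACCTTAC
Over the 66 pairs of 12 such sequences, identity lay between 75.3% and 100%, with a median of 84.0%. The linker was part of how they were chosen, and over the 63 bases before it identity lay between 71.4% and 100%, with a median of 81.0%. Any C2H2 fingers share a consensus, and no value for unrelated fingers is given. Gm13212 and Gm13157 had the same 81 bases.

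The second group was very short predicted coding transcripts, which held the highest FPKM values among the annotated members. Their whole sequences are shown because most are simple repeats or pieces of repeated sequence. The capitals mark the longest run of a repeated pair of bases in Gm17604 and Gm11035, and in Gm6020 the 12 bases that match the zinc finger linker above. The other 3 have no capitals.
Gm17604 (75 bases, chrX:165003765-165004829, minus strand): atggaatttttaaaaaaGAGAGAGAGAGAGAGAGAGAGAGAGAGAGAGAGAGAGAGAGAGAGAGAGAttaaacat
Gm11035 (114 bases, chr15:64979544-65014904, minus strand): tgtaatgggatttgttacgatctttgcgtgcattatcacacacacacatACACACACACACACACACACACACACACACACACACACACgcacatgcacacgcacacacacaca
Gm6020 (66 bases, chr19:61183890-61183955, plus strand): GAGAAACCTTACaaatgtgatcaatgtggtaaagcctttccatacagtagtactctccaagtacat
Gm17545 (72 bases, chr9:22454290-22462062, plus strand): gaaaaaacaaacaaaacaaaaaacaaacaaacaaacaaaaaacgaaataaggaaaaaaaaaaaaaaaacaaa
Gm17428 (93 bases, chr14:54976933-54977025, plus strand): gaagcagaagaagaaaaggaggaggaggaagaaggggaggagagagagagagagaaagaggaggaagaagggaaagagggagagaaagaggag
Gm11032 (102 bases, chr11:4620067-4621698, plus strand): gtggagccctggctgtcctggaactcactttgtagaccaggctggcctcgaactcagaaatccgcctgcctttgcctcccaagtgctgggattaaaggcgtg
The GA run of Gm17604 spanned 50 bases and the AC run of Gm11035 spanned 40 bases. Adenine made up 80.6% of Gm17545, and purines 98.9% of Gm17428.

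The first question was which table listed each member. In both tables stood 63 transcripts, 39.6% of the members in the Mettl3 table and 61.8% of those in the Zfp217 table. Over all transcripts these shares were 42.4% and 49.6%, and over the other protein-coding transcripts 44.0% and 55.2%. The Mettl3 table alone listed 96 members, and the Zfp217 table alone listed 39. Members with at least 3 C2H2 finger motifs in the translated coding sequence made up much of this imbalance. They numbered 39 transcripts of 36 symbols in the Mettl3 table and 12 transcripts of 11 symbols in the Zfp217 table, with 10 transcripts in both. Pseudogene members were even, with 15 in each table and 8 in both.

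RIP levels of the members were low for most and very high for a few. In the Mettl3 table the median was 3.79 FPKM (quartiles 2.05 and 9.68, range 1.01 to 2318), against 0.941 FPKM in the input. The other protein-coding transcripts had a median RIP level of 3.20 FPKM and a median input of 0.938 FPKM. In the Zfp217 table the members' median was 2.93 FPKM (quartiles 1.60 and 6.54, range 1.02 to 1808), against 0.588 FPKM in the input. The other protein-coding transcripts had a median RIP level of 2.62 FPKM and a median input of 0.601 FPKM there. Among listed transcripts, members were therefore at or a little above the level of the other protein-coding ones in both RIP libraries, and their inputs were alike. Transcripts that the tables did not list are not in these medians. They were shorter: the median annotated length was 1313 bases in the Mettl3 table and 645 bases in the Zfp217 table, against 3209 and 2416 bases for the other protein-coding transcripts.

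**Figure D1:**
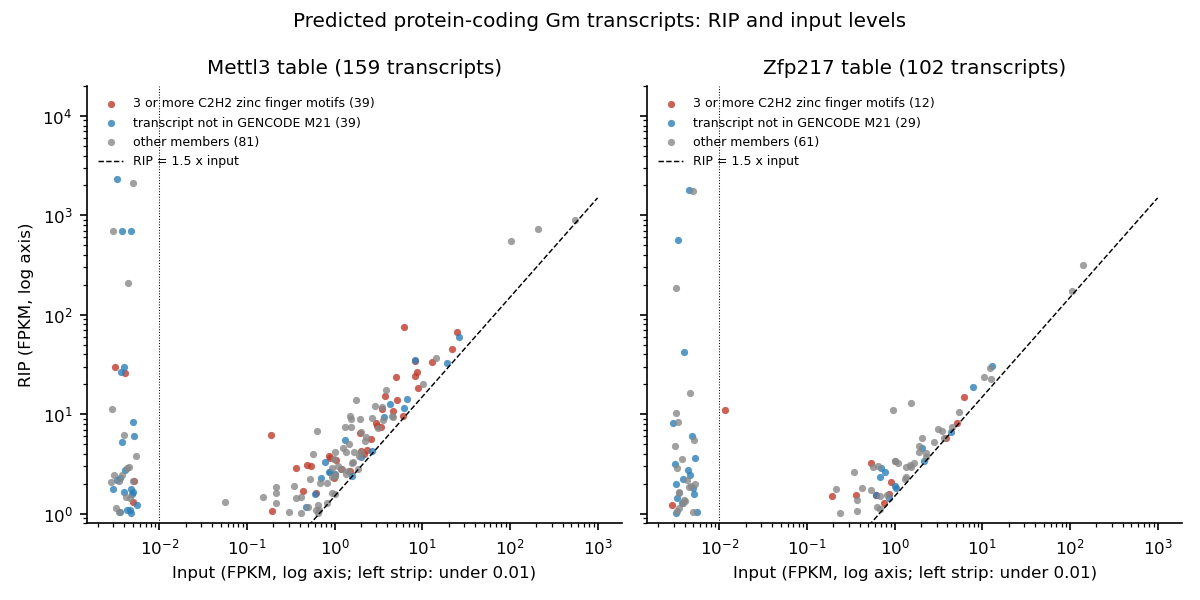
RIP level against input level (FPKM, both axes log) of each member, with the Mettl3 table at left and the Zfp217 table at right, and 1 point per transcript. Points in the strip left of the dotted line had an input under 0.01 FPKM and are spread sideways for visibility (42 of 159 and 39 of 102), and the points above 100 FPKM are transcripts under 300 bases or absent from GENCODE M21.

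An input near 0 leaves no usable ratio, and this was asked of each member. In the Mettl3 table, 42 of 159 members (26.4%) had an input under 0.01 FPKM, of which 40 were listed at 0. All transcripts of the table stood at 35.8%, the other protein-coding ones at 27.8%, and those named after RIKEN cDNA clones at 24.0%. In the Zfp217 table, 39 of 102 members (38.2%) had such an input, of which 37 were listed at 0. There the whole table stood at 44.2%, the other protein-coding transcripts at 37.0%, and the RIKEN-named ones at 31.7%. As a class, then, the listed predicted protein-coding transcripts lay close to the other protein-coding ones in this respect. Gm transcripts of the class transcribed processed pseudogene were higher, at 50.3% and 51.0%. Both tables gave 21 members such an input. The input is that of a transcript and not of its gene. In the Mettl3 table, for example, Gm13051 had 1 transcript with an input of 0.00986 FPKM and another with 8.23 FPKM.

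Within the members the share differed between the classes of the later annotation. These classes were chosen after the values were seen, because they separated them, so the difference is only described. Transcripts no longer annotated had an input under 0.01 FPKM in 53.8% of 39 cases in the Mettl3 table and 58.6% of 29 in the Zfp217 table. Renamed protein-coding genes had one in 14.6% of 41 and 21.1% of 19. Protein-coding genes that kept a Gm name had one in 17.3% of 52 and 32.1% of 28, and pseudogenes in 33.3% and 40% of 15 each. Members now noncoding or unconfirmed had one in 8.33% of 12 and 27.3% of 11. Length went along with it: 54.5% of the 11 annotated members under 300 bases in the Mettl3 table had such an input, against 13.8% of the 109 longer ones. In the Zfp217 table these shares were 66.7% of 12 and 23.0% of 61. Members with zinc fingers had low shares, 10.3% of 39 and 8.33% of 12. The part that length or annotation plays in these shares was not tested.

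**Figure D2:**
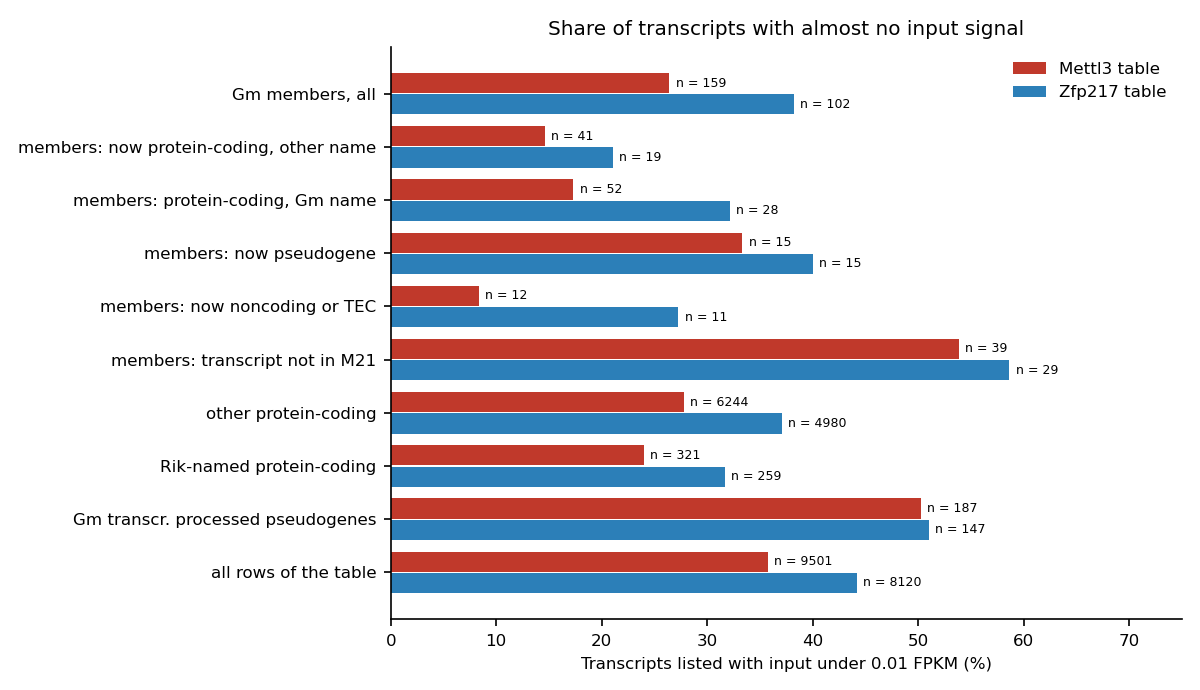
Percentage of transcripts with an input under 0.01 FPKM, in the Mettl3 table (upper bar of each pair) and the Zfp217 table (lower bar), for all members, for 5 classes of members and for 4 comparison sets. Members as a whole (26.4% and 38.2%) sit beside other protein-coding transcripts (27.8% and 37.0%), and members absent from GENCODE M21 are the highest (53.8% and 58.6%). The classes of members were chosen after the values were seen.

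RIP over input was then read as log2((RIP + 1)/(input + 1)) for transcripts with a mean FPKM of at least 1, and a transcript was called when this ratio reached 2-fold. In the Mettl3 table, 129 members passed the filter and 82 of them (63.6%) were called, against 51.1% of all transcripts and 48.0% of the other protein-coding ones. Their median log2 ratio was 1.29, against 0.97 for the other protein-coding transcripts. In the Zfp217 table, 76 members passed and 40 (52.6%) were called, against 49.1% of all transcripts and 45.0% of the other protein-coding ones. The Zfp217 share was thus near the background, and the Mettl3 share was above it. Without inputs under 0.01 FPKM, the shares were 55 of 102 members (53.9%) against 37.6% of all transcripts for Mettl3, and 19 of 55 (34.5%) against 28.4% for Zfp217.

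The zinc finger members differed between the 2 tables in number, RIP level and share called, but less in plain ratio. Their median RIP level was 6.44 FPKM in the Mettl3 RIP, over an input median of 2.19 FPKM, and 1.83 FPKM in the Zfp217 RIP, over an input median of 0.687 FPKM. These medians cover different transcripts, 39 and 12, of which 10 were in both tables. Called as at least 2-fold higher were 25 of 37 (67.6%) in the Mettl3 table and 3 of 9 (33.3%) in the Zfp217 table. All transcripts stood at 51.1% and 49.1%, and the zinc finger transcripts that are no members at 49.3% and 32.8%, and the Zfp217 share was close to that of the other zinc finger transcripts. Annotated members with fewer than 3 finger motifs stood at 62.5% and 51.1%, so the high Mettl3 share was not particular to zinc finger members. Without inputs under 0.01 FPKM, the Mettl3 shares were 64.7% for zinc finger members and 52.9% for those with fewer motifs. The median plain ratios of RIP over input FPKM, for inputs of at least 0.01 FPKM, were 2.80 for Mettl3 and 2.39 for Zfp217. Annotated members with fewer than 3 finger motifs had 2.89 and 2.24, so zinc finger members did not stand out there. Zinc finger genes that are no members were also listed more often in the Mettl3 table, with 280 symbols against 157 in the Zfp217 table. Of the 648 protein-coding genes in GENCODE M21 with at least 3 C2H2 motifs, the Mettl3 table listed 339 (52.3%) and the Zfp217 table listed 189 (29.2%). Over all 21951 protein-coding genes these shares were 21.6% and 17.2%.

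Most zinc finger members lay in 2 gene clusters, which were picked out after their positions were seen. The chromosome 4 cluster, between the starts and ends of its outermost members at chr4:145510759-147809788, held 20 member transcripts of 14 symbols. The Mettl3 table listed 19 of them and the Zfp217 table listed 7, with 6 in both. The chromosome 2 cluster, chr2:175010241-177957239, held 24 member transcripts of 19 symbols, with 23 in the Mettl3 table, 5 in the Zfp217 table and 4 in both. Counted over all annotated C2H2 genes of each cluster, whatever their symbol, the Mettl3 table listed 16 of 19 on chromosome 4 and 18 of 35 on chromosome 2. The Zfp217 table listed 7 of 19 and 5 of 35. Outside the clusters the shares were 51.3% and 29.8% of 594 genes. The cluster spans were set by listed members, most of them from the Mettl3 table. The shares inside the clusters therefore depend on that choice, and no conclusion is drawn from how they differ from the shares outside.

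**Figure D3:**
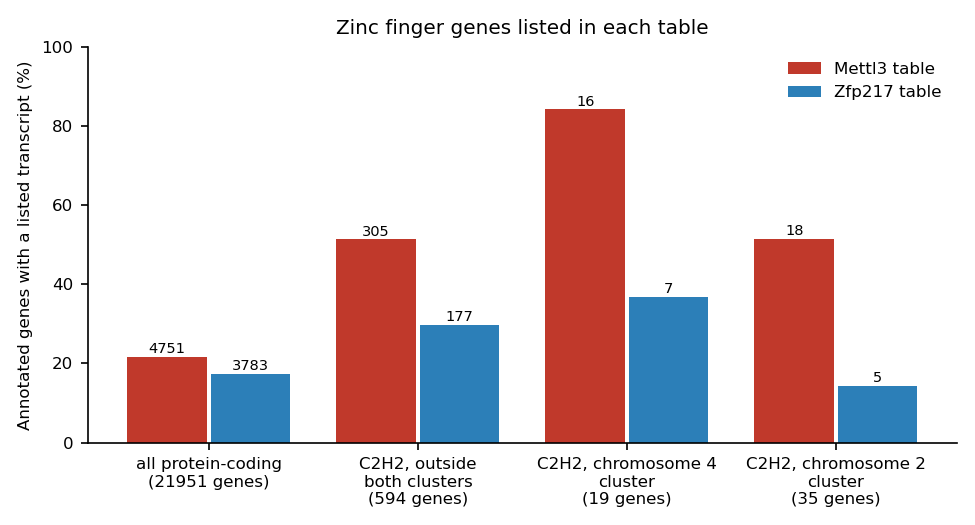
Percentage of annotated protein-coding genes with at least 1 listed transcript in the Mettl3 table (left bars) and the Zfp217 table (right bars), for all genes and for genes with at least 3 C2H2 motifs outside and inside the clusters. The number above each bar is the number of genes listed, and the chromosome 4 cluster is highest in the Mettl3 table, with 16 of 19 genes. Cluster spans were set by listed members, most of them from the Mettl3 table, so the cluster bars depend on that choice.

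Levels in the chromosome 4 cluster were led by Gm13225, now Zfp990, a C2H2 protein with 13 finger motifs. It had 74.6 FPKM in the Mettl3 RIP against 6.18 FPKM in the input, a ratio of 12.1 with a 95% counting interval of 9.93 to 15.0. In the Zfp217 RIP it had 14.9 FPKM against 6.25 FPKM in the input, a ratio of 2.39 (1.91 to 3.01). The 2 intervals do not overlap, and the difference of 2.26 between its log2 ratios was the largest among all members in both tables. These intervals cover counting error only, with whole read numbers estimated from the FPKM values, and say nothing about the spread between immunoprecipitations.

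Some of its neighbours were high in the Mettl3 RIP as well, and others were low. Gm13247, now Zfp981, had 34.2 FPKM in the Mettl3 RIP against 8.27 FPKM in the input, a ratio of 4.14 (3.45 to 4.97). Gm13251, now Zfp992, had 23.8 FPKM against 4.97 FPKM, a ratio of 4.79 (3.98 to 5.81). Neither was in the Zfp217 table. Gm13235, now Zfp986, had 15.4 FPKM in the Mettl3 RIP against 3.78 FPKM in the input, a ratio of 4.09 (2.74 to 6.31). In the Zfp217 RIP it had 5.80 FPKM against 3.82 FPKM in the input, and its ratio of 1.52 (0.951 to 2.48), the lowest of any member in that table, was not separable from 1 by counting error. Gm13154, now Zfp985, and Gm13157, now Zfp984, had 33.8 and 24.3 FPKM in the Mettl3 RIP, against 12.9 and 8.32 FPKM in the input, but another transcript of each had 2.01 and 3.09 FPKM against 0.811 and 0.480 FPKM. Gm13139, now Zfp991, was at 3.48 FPKM in the Mettl3 RIP and Gm13151, now Zfp988, at 2.90 FPKM, against 1.03 and 0.360 FPKM in the input. The median over the 19 cluster members in the Mettl3 RIP was 11.2 FPKM, and over the 7 in the Zfp217 RIP 5.80 FPKM.

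Several genes of this cluster had transcripts that differed widely in their input. Gm13051, now Zfp987, had 1 transcript at 29.9 FPKM in the Mettl3 RIP and 0.00986 FPKM in the input, and at 11.0 FPKM in the Zfp217 RIP and 0.0116 FPKM in the input. Its other transcript had 35.4 FPKM in the Mettl3 RIP and 8.23 FPKM in the input. The Gm13051 transcript with almost no input shared 96.5% of its windows with other genes, so its levels are uncertain. Gm13152, now Zfp982, had 1 transcript at 6.21 FPKM against 0.188 FPKM in the input, a Mettl3 ratio of 33.0 with an interval of 6.85 to 1584, and a second at 9.58 FPKM against 5.97 FPKM, a ratio of 1.60 (1.14 to 2.32). The same gene thus gave a ratio near the top and one near the bottom of the list. The 3 transcripts of Gm13212 had 11.2, 9.04 and 2.81 FPKM in the Mettl3 RIP against 3.49, 1.97 and 1.18 FPKM in the input.

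**Figure D4:**
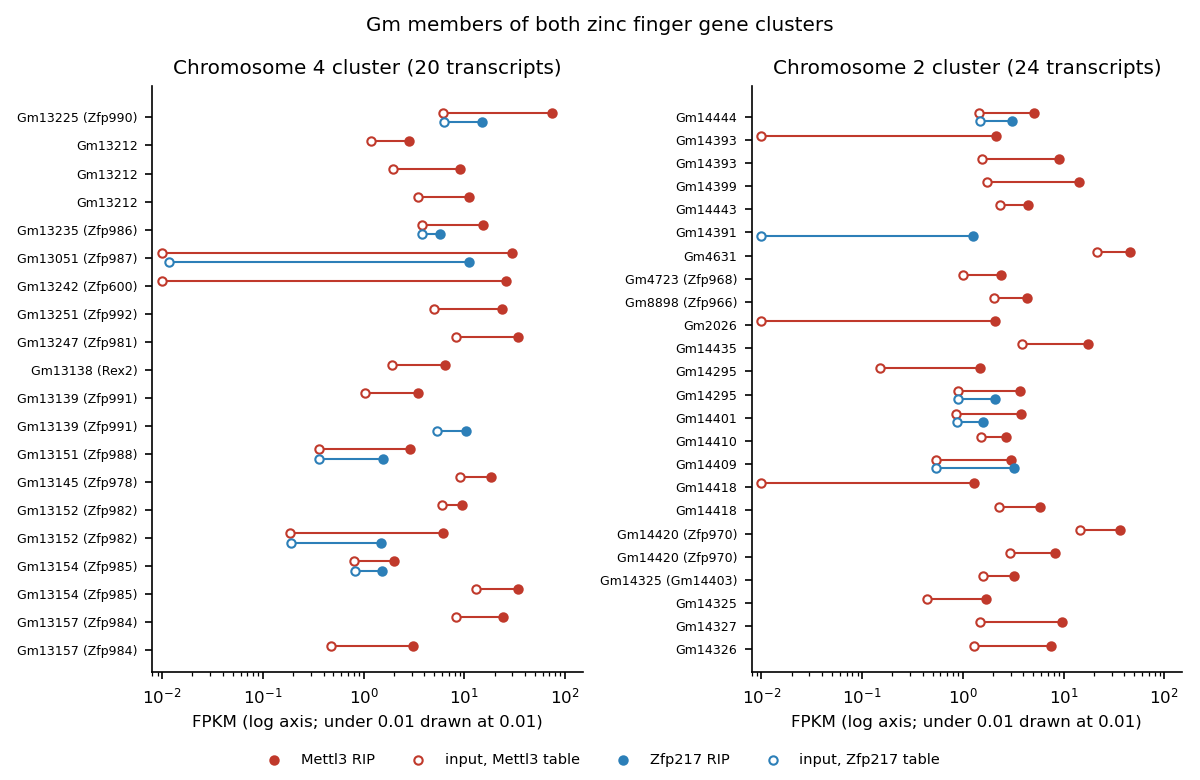
RIP level (filled circles) and input level (open circles, joined by a line) in FPKM on a log axis, for each member transcript of the chromosome 4 cluster (left) and the chromosome 2 cluster (right), in order along the chromosome. Mettl3 values are red and Zfp217 values blue, a missing colour means that the table did not list the transcript, and inputs under 0.01 FPKM are drawn at 0.01; Zfp217 values are present for 7 of 20 and 5 of 24 transcripts.

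The chromosome 2 cluster had lower levels, with a median of 4.30 FPKM over 23 members in the Mettl3 RIP and 2.08 FPKM over 5 in the Zfp217 RIP. The highest were Gm4631, a zinc finger gene, with 45.7 FPKM in the Mettl3 RIP against 21.6 FPKM in the input, and a transcript of Gm14420, now Zfp970, with 36.5 FPKM against 14.5 FPKM. Among transcripts with both values of at least 1 FPKM, those without 3 finger motifs had the highest ratios. Gm14399 had 14.1 FPKM in the Mettl3 RIP against 1.74 FPKM in the input, a ratio of 8.09 (3.32 to 21.3). Gm14327 had 9.66 FPKM against 1.48 FPKM, a ratio of 6.52 (3.59 to 13.7), and Gm14393 had 9.07 FPKM against 1.55 FPKM, a ratio of 5.86 (1.96 to 21.1). Their intervals overlap one another and that of Gm14326, at 7.42 FPKM against 1.30 FPKM (5.71, 2.11 to 17.1). One member lay in the Zfp217 table alone, Gm14391, at 1.27 FPKM with the input listed at 0.

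Likeness over whole transcripts was measured apart from the fingers. Of the members' 31-base windows, a median of 60.4% in the Mettl3 table and 43.9% in the Zfp217 table occurred in a transcript of another gene on either strand, against 0.620% and 0.309% for the other protein-coding transcripts. At least 50% of the windows were shared in 68 of 120 annotated members (56.7%) for Mettl3 and 30 of 73 (41.1%) for Zfp217. For the other protein-coding transcripts this held in 4.77% and 5.74%. In the clusters, the gene sharing most windows lay on the same chromosome for 19 of 20 transcripts on chromosome 4 and 24 of 24 on chromosome 2. How the authors' counting divided reads among such copies is not given in the sources used here, so levels of single members are uncertain where copies are close, and the part this plays in the ratios was not tested. Only 10 zinc finger members for Mettl3 and 4 for Zfp217 shared less than 50% of their windows.

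One of these was Gm6871 on chromosome 7, with 11 finger motifs and 34.9% of its windows shared. It had 13.9 FPKM in the Mettl3 RIP against 5.10 FPKM in the input, a ratio of 2.72 (1.90 to 3.97), and 8.08 FPKM in the Zfp217 RIP against 5.16 FPKM in the input, a ratio of 1.57 (1.04 to 2.36). Another was Gm17067, also on chromosome 7, with 8 motifs and 22.5% of windows shared. It had 26.7 FPKM in the Mettl3 RIP against 8.76 FPKM in the input, a ratio of 3.05 (2.60 to 3.60), and was not in the Zfp217 table. Gm12258 on chromosome 11 showed no such lean to Mettl3. Its transcript with 5 motifs shared 0% of its windows. It had 1.61 FPKM in the Mettl3 RIP against 0.610 FPKM in the input (2.65, 1.29 to 6.95). In the Zfp217 RIP it had 1.54 FPKM against 0.616 FPKM (2.49, 1.09 to 5.84). Another Gm12258 transcript, with 8 motifs and 3.44% of windows shared, was in the Zfp217 table alone, at 1.30 FPKM against 0.757 FPKM.

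Members that later received a functional name included several with almost no shared windows. Gm608, now Usf3, a large helix-loop-helix transcription factor gene, had a transcript at 4.55 FPKM in the Mettl3 RIP against 1.25 FPKM in the input, a ratio of 3.65 (2.92 to 4.62). A second had 5.51 FPKM against 1.32 FPKM, and the last 2.43 FPKM with the input listed at 0. No transcript of Gm608 was in the Zfp217 table. Gm9938, now Ptar1, a prenyltransferase subunit gene, had 12.2 FPKM in the Mettl3 RIP against 2.90 FPKM in the input (4.21, 2.81 to 6.56). Gm962, now Ap5b1, a subunit of the AP-5 adaptor complex, had 3.57 FPKM against 0.984 FPKM (3.63, 2.13 to 6.37).

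Other members of this kind were listed for both antibodies at like levels. Gm505, now Sprtn, a protease that clears DNA-protein crosslinks, had 3.79 FPKM in the Mettl3 RIP against 1.88 FPKM in the input, and 4.20 FPKM in the Zfp217 RIP against 1.90 FPKM in the input. The ratios were 2.02 (1.44 to 2.84) and 2.21 (1.58 to 3.16), and their intervals overlap. Gm9781, now Eif3j2, a subunit gene of translation initiation factor eIF3, had 6.70 FPKM in the Mettl3 RIP and 5.73 FPKM in the Zfp217 RIP, against 2.02 and 2.04 FPKM in the input. It shared 94.0% of its windows with its paralogue Eif3j1. Gm561, now Smim26, a small integral membrane protein gene, had 2.47 FPKM in the Mettl3 RIP and 3.42 FPKM in the Zfp217 RIP, against 0.997 and 1.01 FPKM in the input. Gm340, which kept its Gm name, had 9.70 FPKM in the Mettl3 RIP and 7.37 FPKM in the Zfp217 RIP, against 4.49 and 4.54 FPKM in the input.

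Some members stood higher in the Zfp217 RIP. Gm7325, now Mymx, encodes a micropeptide of myoblast fusion, and it had 6.22 FPKM in the Mettl3 RIP with the input listed at 0, and 16.2 FPKM in the Zfp217 RIP with the input at 0.000200 FPKM. Gm16286, an uncharacterised gene on chromosome 18, had a transcript at 7.50 FPKM in the Mettl3 RIP against 1.54 FPKM in the input, a ratio of 4.88 (2.85 to 9.37). In the Zfp217 RIP it had 13.1 FPKM against 1.55 FPKM, a ratio of 8.43 (4.86 to 15.2), so that the intervals overlap. Its other listed transcript went the other way, with 11.3 FPKM in the Mettl3 RIP and 8.31 FPKM in the Zfp217 RIP over inputs of 0.00242 and 0.00287 FPKM. Gm10479, now noncoding and 241 bases long, had 2.88 FPKM in the Mettl3 RIP and 11.2 FPKM in the Zfp217 RIP, against 0.941 and 0.951 FPKM in the input, with intervals of 0.142 to 92.9 and 0.894 to 296 that leave the difference unresolved.

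Of the 63 transcripts in both tables, 41 (65.1%) had a higher log2 ratio in the Mettl3 table, with a median difference of 0.25, Mettl3 minus Zfp217. Among the other protein-coding transcripts in both tables the share was 1602 of 2750 (58.3%) and the median difference 0.08. The 2 ratios share the input library, so no relation between them was computed. Of the zinc finger members, 9 of 10 were higher in the Mettl3 table, with a median difference of 0.82. Their median RIP levels were 5.01 FPKM for Mettl3 and 2.67 FPKM for Zfp217. Several of these 10 share most of their windows with other genes, so they are not separate observations. The difference was not computed for the 117 zinc finger transcripts in both tables that are no members, so it cannot be called particular to members.

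**Figure D5:**
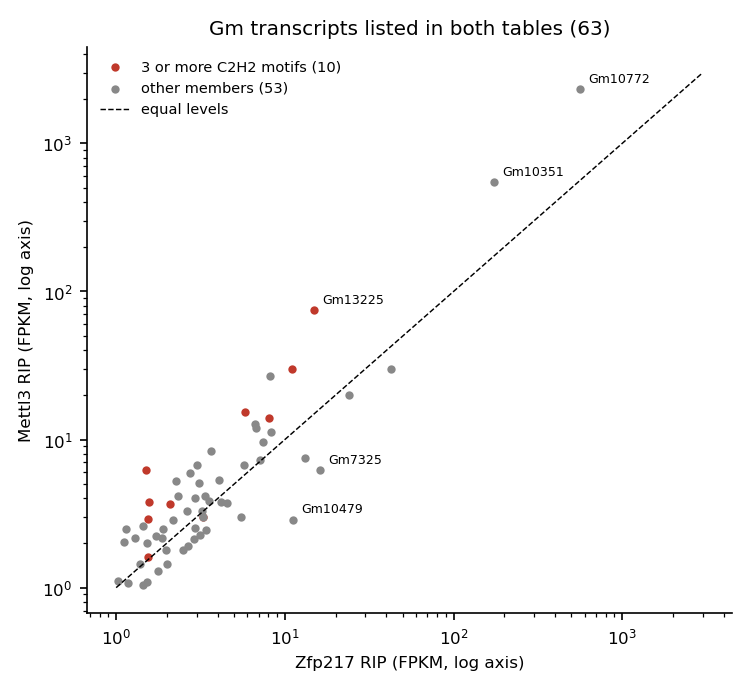
Mettl3 RIP level against Zfp217 RIP level (FPKM, both axes log) of the 63 transcripts in both tables, with zinc finger members in red. Red points lie above the line of equal levels in nearly every case, Gm13225 at 74.6 and 14.9 FPKM being the highest of them, and Gm7325 and Gm10479 lie below it.

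Several pseudogene members shared most of their windows with a single named gene. Gm3200 shared 97.3% of its windows with Gapdh, the glycolytic enzyme gene, and had 2.47 FPKM in the Mettl3 RIP and 1.14 FPKM in the Zfp217 RIP, with the input listed at 0 in both tables. Gm10071, now Rpl13-ps6, shared 86.6% with the ribosomal protein gene Rpl13 and had 2.96 FPKM in the Zfp217 RIP against 1.54 FPKM in the input (1.92, 0.601 to 9.10). Gm6180 shared 60.9% with the cofilin gene Cfl1 and had 7.25 FPKM in the Mettl3 RIP and 7.11 FPKM in the Zfp217 RIP, against 3.09 and 3.12 FPKM in the input. The closest gene of 6 members was a ribosomal protein gene or its pseudogene. Gm10073, still called protein-coding, was one of these, with 73.0% of its windows in Rplp1, and had 29.0 FPKM in the Zfp217 RIP against 12.4 FPKM in the input (2.35, 1.48 to 3.82).

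Members could also lie across a named gene. Gm11175, now an antisense gene, lay wholly within the transcribed sequence of Jund, an AP-1 transcription factor gene, with 100% of its windows there. It had 20.0 FPKM in the Mettl3 RIP against 10.2 FPKM in the input (1.96, 1.20 to 3.17), and 23.8 FPKM in the Zfp217 RIP against 10.3 FPKM in the input (2.31, 1.46 to 3.93). Gm10401 lay in the same way within Sppl3, a membrane protease gene, and had 22.7 FPKM in the Zfp217 RIP against 12.4 FPKM in the input (1.83, 1.21 to 2.84). Whether the counting used strand is not given in the sources used here, so reads of these members and of the genes they overlap cannot be told apart.

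Among annotated members, the highest values belonged to very short transcripts. At least 100 FPKM was reached by 9 members in the Mettl3 RIP, of which 6 were in GENCODE M21 with lengths of 72 to 171 bases and 3 were not in it. In the Zfp217 RIP it was reached by 6 members, of which 4 were annotated, with lengths of 66 to 125 bases. Gm17604, the GA repeat printed above, had 2119 FPKM in the Mettl3 RIP with the input listed at 0, and was not in the Zfp217 table. Gm6020, the 66-base piece of a zinc finger, had 1757 FPKM in the Zfp217 RIP with the input listed at 0, and was not in the Mettl3 table. The highest value of each table among members belonged to a transcript absent from the annotation, whose length is not known here. Gm17283 had 1808 FPKM in the Zfp217 RIP with the input listed at 0, and was not in the Mettl3 table. Gm10772, whose listed transcript is absent from the annotation, was in both, at 2318 FPKM in the Mettl3 RIP and 559.6 FPKM in the Zfp217 RIP, with the input listed at 0. No counting interval or read number was computed for transcripts under 240 bases. All of these annotated transcripts but Gm10139 were shorter than the 140 bases subtracted from each length in the depth estimate. Their FPKM values may therefore rest on few reads and do not rank the members by binding.

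Only a few of these short members had an input that allowed a ratio. Gm11032 had 908 FPKM in the Mettl3 RIP against 548 FPKM in the input, a ratio of 1.66. Its windows were all found in other genes, 1426 of them, and from general knowledge its last bases read like the mouse B1 interspersed repeat, which was not checked against a repeat library. Gm11035, the AC repeat, had windows in 2857 other genes, and 317 FPKM in the Zfp217 RIP against 141 FPKM in the input, a ratio of 2.24. Gm10139 had 736 FPKM in the Mettl3 RIP against 207 FPKM in the input, a ratio of 3.56. Gm10351 had 546 FPKM in the Mettl3 RIP against 103 FPKM in the input (5.29), and 174 FPKM in the Zfp217 RIP against 104 FPKM in the input (1.67).

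A last comparison concerned GGACT, the most common form of the m6A consensus, counted on the sense strand of transcripts of at least 300 bases. Members held 0.68 copies per kilobase in the Mettl3 table and 0.76 in the Zfp217 table, against 1.02 and 1.10 for the other protein-coding transcripts. At least 1 copy was present in 59.6% and 49.2% of members, and in 89.6% and 85.4% of the other, longer transcripts. For zinc finger members these shares were 55.3% and 63.6%. Zinc finger members held 0.35 copies per kilobase in the Mettl3 table and 0.34 in the Zfp217 table, against 0.92 and 0.93 for zinc finger transcripts that are no members. Annotated members with fewer than 3 finger motifs held 0.91 and 0.92, so the low density of the members lay mostly in the zinc finger ones. In the chromosome 4 cluster the density was 0.27 copies per kilobase over 19 transcripts. A motif count is a property of the sequence and gives no methylation level.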

How the data were processed

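The authors deposited 2 tables, 1 per antibody, with the FPKM of the RIP and input library for each Ensembl transcript, its symbol and class, and a log2 fold change, which was not used and lay within 0.00466 of the ratio of the FPKM values where the input was above 0. The tools named in the submitters' processing notes were TopHat2 2.0.8, Bowtie2, Cuffdiff, Cufflinks and CASAVA 1.4, with build mm9, and no role is given in the sources used here. Input values of the Mettl3 table were 0.989 times those of the Zfp217 table at the median, so ratios were taken within each table. Ratios used log2(FPKM + 1), which understates low transcripts; plain FPKM ratios are given for single transcripts with inputs of at least 0.01 FPKM, except where an input lay just above it. With 1 library per group no p-value was computed.

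Lengths, coordinates, windows and motifs came from GENCODE M21 on GRCm38, which is not the authors' build, through transcript identifiers. C2H2 motifs were counted in translated coding sequences, and GGACT allowing overlap. Depth was estimated from the FPKM steps of short noncoding RNAs, subtracting 140 bases from each length (16 of 18 values whole within 0.1 reads for the Mettl3 RIP, 19 of 20 for the Zfp217 RIP, but only 4 of 4 and 3 of 3 for the input in the Mettl3 and Zfp217 tables, so the input depth behind every interval rests on few values), and gave the 95% counting intervals of ratios (conditional exact binomial). The depth step, not the intervals, was tested on simulated data. Python 3.11.15, pandas 2.3.3, numpy 2.4.6, scipy 1.17.1 and Biopython 1.88 were used.

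Named transcripts were, per table, the 8 with the highest ratio at both values of at least 1 FPKM, the 6 highest in the RIP, the 6 highest with inputs under 0.01 FPKM and the 4 lowest ratios, then those highest in both tables, furthest apart between tables, or of symbols with at least 3 transcripts. Other transcripts named were chosen after their values were seen, as were the clusters and the classes. The members and all lists were chosen with earlier results of these data known.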

Additional observations from a re-analysis of the deposited data

How the results depend on the processing

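No paired analysis was possible because each group had 1 library, and leaving out a library was not possible for the same reason. The shares of members called at least 2-fold higher were 63.6% for Mettl3 and 52.6% for Zfp217, and they moved with the setting. With a pseudocount of 0.1 they were 83.7% for Mettl3 and 69.7% for Zfp217 (all transcripts 69.0% and 64.5%), without inputs under 0.01 FPKM 53.9% and 34.5% (37.6% and 28.4%), and with inputs of at least 1 FPKM 56.2% and 30.6% (33.8% and 20.7%). The share with an input under 0.01 FPKM was 27.6% in the Zfp217 table among transcripts with a mean of at least 1 FPKM. In the Mettl3 table it was 34.1% without transcripts that shared at least 50% of their windows, a set that still held the 39 members absent from GENCODE M21. It was 17.5% for transcripts in GENCODE M21 and 19.2% for those of them that shared less than 50%. These alternatives were added after seeing the data. Without inputs under 0.01 FPKM, 41 transcripts were in both tables. Among zinc finger members (alternatives added after seeing the data), 10 in the Mettl3 table and 4 in the Zfp217 table shared less than 50% of their windows, and 5 in the Zfp217 table reached 3 FPKM in the RIP, against 30 in the Mettl3 table. Beyond the smaller sets used, the cause was not tested. All 67 named transcript ratios were higher with a pseudocount of 0.1, and 0 reversed. This outcome was fixed in advance, because every listed RIP value lay above its input. An alternative based on protein identity was not run. Depth limits single ratios where the input held few reads, as the intervals show.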

Other observations

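Some members had exactly the RIP value of another transcript of their table, 11 of 159 in the Mettl3 table (6.92%) and 8 of 102 in the Zfp217 table (7.84%), against 2.97% and 3.34% of all transcripts. Gm10281, Gm17438 and Gm17545 each had 700.058 FPKM in the Mettl3 RIP with the input listed at 0, and 4 transcripts of that table had this value. Gm3944 and Gm9312 shared 1.04543 FPKM in the Mettl3 RIP, both with the input listed at 0. Gm3944 and Gm4983 shared 1.44686 FPKM in the Zfp217 RIP, with inputs of 0 and 0.862 FPKM.

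Not every member had a close copy. No 31-base window in another gene was found for 15 of 147 annotated members, among them Gm1564, now Meioc, a regulator of germ cell meiosis, at 2.33 FPKM in the Mettl3 RIP against 0.945 FPKM in the input, and Gm6484, now Angptl8, a secreted regulator of lipoprotein lipase, at 4.21 FPKM against 2.02 FPKM. At the other end, 15 members had at least 90% of their windows in 1 other gene, and 33 had windows in at least 100 other genes. Gm3625, 102 bases long and wholly within Itsn2, had 209.6 FPKM in the Mettl3 RIP with the input listed at 0.

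Gm13242, now Zfp600, had 25.9 FPKM in the Mettl3 RIP with the input listed at 0 for its annotated transcript. That transcript shared 91.9% of its windows with other genes, so its levels, the 0 included, are uncertain. A second transcript, absent from the annotation, had 8.31 FPKM in the Mettl3 RIP and 3.67 FPKM in the Zfp217 RIP, again with the input listed at 0. Gm13138, now Rex2, another C2H2 gene of the chromosome 4 cluster, had 6.44 FPKM in the Mettl3 RIP against 1.92 FPKM in the input, a ratio of 3.34 (2.39 to 4.70).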
